A study of Mus musculus with 10 samples.

Results

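Of the 23473 probes on a mouse microarray, 42 (0.179%) are described here: those with a signal in heart tissue and in mouse embryonic fibroblasts (MEF) that was at least 2-fold above every first-round sample of induced cardiomyocyte-like cells (iCM). They were chosen on the authors' value table, a deposited table of linear intensities scaled so that the middle listed probe of each array lies near 25. Empty values and values under 25 were set to 25. A probe was taken when heart and MEF were each at least 2 times the highest of 6 iCM arrays and heart lay between 0.5 and 2 times MEF. The rule used those 8 arrays, so the levels in them are a description and carry no test.

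RNA was measured in 10 samples, with 1 array each and no replicate of any condition. The iCM were MEF given Gata4, Mef2c and Tbx5 (GMT) by pMx retrovirus, with or without a transfected synthetic mimic of mature miR-133a, and sorted at days 3, 7 and 18 for GFP driven by the α-MHC promoter. A later round, also at day 7, held 1 array with Snai1 added to GMT/miR-133 and 1 array titled GMT/miR-133 like the earlier one, though its description names GMT alone. Heart tissue and MEF, both without treatment, are labelled as controls. The labels describe a sort for the iCM samples and none for heart or MEF, and strain and animal age are not given in the sources used here. Heart tissue is a mixture of myocytes, fibroblasts, vessel and blood cells, and in a bulk sample fewer cells of a type and less RNA per cell cannot be told apart.

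Gata4, Mef2c and Tbx5 are transcription factors of the developing heart, and their forced expression moves fibroblasts toward a cardiac-like state. Such conversion is usually described on a line with the fibroblast at one end and the heart at the other, where fibroblast transcripts are lost and heart transcripts are gained. miR-133 is a microRNA abundant in cardiac and skeletal muscle, and Snai1 is a transcription factor of epithelial-mesenchymal transition and a reported miR-133 target. The 42 probes lie off that line: both ends of it were bright, and the cells in between were dim.

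The files used here do not pair probes with genes, so each probe is given by its identifier, no function or chromosome can be attached to it, and the labelled cell types could not be checked against marker genes. Probe sequences are not used here. Detected probes, those brighter than 95% of the blank spots of their array, made up 77.8% to 87.7% of the chip, with the 2 lowest shares in the later round. A table value of 25 stood for a spot intensity of 43.6 to 92.0, against 16 to 51 for the level that 95% of blank spots stayed under, so the floor lies above blank signal on all 10 arrays. Within each arm, the table's day 3 column holds the values of the day 7 scanner file and the day 7 column those of the day 3 file (Pearson's r across probes 0.99999, against at most 0.986 for any other file). Intensities below are given under the table's day labels, and log2 values under the labels of the scanner files. The scan times in the file headers put MEF, heart and the files labelled days 3 and 18 in 1 session, the files labelled day 7 in another, and the later round in another again. With the rule applied to the iCM columns of the controls' own session alone, 70 probes passed, all 42 among them, though a rule over fewer arrays can only pass more.

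Of 5008 probes that were at least 50 in both controls and within 2-fold between them, the 42 made up 0.839%. The median ratio of the dimmer control to the brightest iCM array was 0.611 over those 5008 probes. MEF was at least 2-fold above every iCM array at 564 probes and heart at 773, each counted without regard to the other control. The 2 lists shared 80 probes, and in 38 of these the controls differed from each other more than 2-fold, 15 brighter in heart and 23 brighter in MEF. The 42 thus make up 7.45% of the MEF list and 5.43% of the heart list. The mirror pattern, every iCM array at least 2-fold above both controls that lay within 2-fold of each other, was met by 171 probes.

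The controls were close to each other by the rule, and neither was brighter throughout. Heart exceeded MEF at 19 of the 42 probes and lay below it at 23. Heart divided by MEF had a median of 0.887, with a range of 0.519 to 1.92. The dimmer control had a median of 114 and a range of 53.2 to 2665, while over the 5008 probes that median was 131. Folds over the geometric mean of the 6 iCM arrays are lower bounds at the 25 probes with any iCM array at or under 25. At the 17 others the iCM were 2.17 to 13.1-fold under heart, with a median of 4.36, and 2.67 to 11.0-fold under MEF, with a median of 3.43.

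The probes fell into 3 kinds by what was left in the iCM. At 13 of them all 6 iCM arrays were at or under 25, so their ratios are lower bounds set by the floor. At 17 all 6 arrays were above 25, a dimmed but measurable signal. The other 12 were above 25 on some arrays and not on others. In the controls, the probes at the floor had 53.2 to 141 in heart and 55.0 to 142 in MEF, and the mixed ones 58.4 to 581 in heart and 68.0 to 498 in MEF, so these kinds overlap. Those above it throughout had 100.3 to 2665 in heart and 95.6 to 3301 in MEF, and their brightest iCM array was at 39.9 to 705. By array, 21, 17 and 22 members exceeded 25 with GMT/miR-133 at days 3, 7 and 18 and 25, 21 and 25 with GMT. On these arrays 10412 to 10813 of all 23473 probes did. In heart and MEF all 42 members exceeded 25, as the rule requires. On the scanner files 38 of the 42 exceeded the blank-spot level on all 10 arrays and 39 on all 6 first-round iCM arrays. Over all probes, 81.4% to 86.5% exceeded it on each of those 6 arrays taken singly. The share of all probes that exceeded it on every array was not counted. The brightest and dimmest iCM arrays, with the floor applied, differed by a median of 1.39-fold and by up to 5.24-fold. Among the 29 probes with any iCM array above 25, that brightest array was GMT at 21 and GMT/miR-133 at 8. The rule used the brightest array, and no such count was made over all probes, so these numbers show no difference between the arms.

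The largest ratio belonged to M200000752. Its intensities were 288, 165 and 247 with GMT/miR-133 and 65.2, 133 and 174 with GMT at days 3, 7 and 18, against 2118 in heart and 1783 in MEF. The dimmer control was 6.18 times the brightest iCM array. Even the brightest first-round iCM array was thus far under both controls, and the GMT/miR-133 array was above the GMT array at each day.

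M400002872, next by ratio at 5.88, was under the floor at days 3 and 7. It had 15.7, 19.9 and 56.9 with GMT/miR-133 and 19.6, 23.7 and 84.7 with GMT at days 3, 7 and 18, against 581 in heart and 498 in MEF. The day 18 arrays of both arms were the 2 highest iCM arrays. At M200000830, the next by ratio, GMT/miR-133 arrays had 15.2, 5.65 and 7.01 and GMT arrays 34.4, 5.54 and 9.84, against 238 in heart and 159.9 in MEF. Here the day 3 GMT array alone was above 25, and the ratio was 4.65.

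M200004810 and M200004722 were at or under 25 on all 6 iCM arrays. M200004810 had 11.1 to 18.2 across them, against 108.6 in heart and 142 in MEF, a ratio of at least 4.34. M200004722 was left empty in both day 7 columns and had at most 12.5 on the others, against 106 in heart and 125 in MEF, a ratio of at least 4.24. On the scanner files it exceeded the blank-spot level on 4 of 10 arrays, and it was the member too dim for the tests between iCM groups, which therefore cover 41 probes.

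M400010757 had 34.8, 20.7 and 30.6 with GMT/miR-133 and 74.8, 37.9 and 37.5 with GMT at days 3, 7 and 18, against 458 in heart and 291 in MEF. Its 3 GMT arrays were all above its 3 GMT/miR-133 arrays, a separation that was not counted over all probes. M400000336 was the brightest of the 42 in MEF and in heart. It had 427, 229.5 and 169.9 with GMT/miR-133 and 705, 272 and 257 with GMT, against 2665 in heart and 3301 in MEF, a ratio of 3.78. In both arms day 3 of the table was the highest of the 3 days and day 18 the lowest.

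M400000370, M200001251 and M300000072 complete the 10 largest ratios. M400000370 had 31.2 to 48.7 across the 6 iCM arrays, against 179.7 in heart and 213 in MEF. M200001251 had 9.08 to 21.5, all at or under 25, against 91.9 in heart and 110.7 in MEF. M300000072 had 15.4 to 65.5, against 240.1 in heart and 463 in MEF, with its 2 highest iCM values at day 18. Of the brightest members by their dimmer control, M400010804 had 129 to 236 across the iCM arrays, against 842 in heart and 638 in MEF. M300000787 had 72.4 to 185 across them, against 953 in heart and 633 in MEF.

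At the edge of the rule the pattern shades into ordinary probes. The smallest ratios inside it were 2.01 at M300005983, 2.03 at M300010492, 2.11 at M300001561, 2.12 at M200007901 and at least 2.13 at M200008305. M300005983 had 122 to 160.0 across the 6 iCM arrays, against 322 in heart and 392 in MEF. The nearest probes outside were M400002573 at 1.99, M200004757 at 1.99, M200008310 at 1.96, M400009287 at 1.95 and M200005905 at 1.95. M400009287 had 121 to 267 across the iCM arrays, against 584 in heart and 522 in MEF.

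The 42 probes were spread over the chip. They lay in 20 of its 24 blocks, with at most 5 in a block, and no 2 of them were on neighbouring spots. On log2 intensities from the scanner files, which were background-corrected against the blank spots and quantile-normalized, all 42 kept the dimmer control above the brightest iCM array, by 0.64 to 2.71 with a median of 1.15. At 15 this gap was under 1, a 2-fold difference, and at 2 the controls differed by more than 1, so 26 of the 42 met the same rule on that scale. The scanner scale gave 36 probes in all. These gaps come from the arrays that chose the members.

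Setting GMT/miR-133 against GMT describes whether the microRNA goes with a deeper or shallower loss at these probes. The rule did not use the difference between the arms, but it did use the brightest of the same 6 arrays. The members are therefore not an independent choice of probes for this contrast. With 1 array per arm and day, the 3 days serve as replicates. A linear model in limma with terms for arm and day was fitted over 19932 probes detected on at least 3 of the 6 arrays. No probe of the 41 tested passed at an adjusted p of 0.05, and none of the 19932 did (0.0% in either direction). The smallest adjusted p among the members was 0.202. By unadjusted p under 0.05, 14 members were lower with miR-133 and 3 higher, where 4.88% and 4.75% of all tested probes were.

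Most of the members leaned the same way without passing the test. With GMT/miR-133, 23 of 41 were lower than with GMT at all 3 days, against a background of 14.7% of tested probes, and 6 of 41 were higher at all 3 days, against 14.9%. The median difference over the members was −0.11 on the log2 scale, where all tested probes had 0.0031. The members' quartiles were −0.17 and 0.015, and 2 members differed by more than 0.5. By day it was −0.038, −0.080 and −0.15 at days 3, 7 and 18, with 27, 27 and 33 of 41 below 0, where 49.6%, 48.6% and 48.4% of tested probes were. Each day pair was scanned in a single session. The count depended on the values used: 15 of 41 were lower at all 3 days with the local background column, against 13.4% of tested probes, and 9 with the authors' values, against 10.9%. In the authors' values the floor of 25 hides differences between dim values.

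M300000787 had the largest difference toward lower values with miR-133 among members with the same sign at all 3 days. On the log2 scale it was at 7.37, 7.72 and 7.34 with GMT/miR-133 and at 7.87, 8.33 and 8.04 with GMT in the files of days 3, 7 and 18. The groups did not overlap, though the share of all tested probes with such a separation was not counted. The mean difference was −0.61 ± 0.056 (SE, n = 3 days; limma, adjusted p = 0.202). It passed under 3 of the other settings, with limma's adjusted p at 0.0282 without background subtraction, at 0.0223 with a smaller normexp offset and at 0.0109 with a trended, robust fit. Those settings also called other probes, with 53, 65 and 100 of 19932 lower and 26, 37 and 61 higher in that order.

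M400000336 and M400010757 came next, at −0.42 ± 0.099 (SE; limma, adjusted p = 0.365) and −0.37 ± 0.11 (SE; limma, adjusted p = 0.429), both lower at all 3 days. In the other direction M200000752 differed by 0.26, 1.70 and 0.44 at days 3, 7 and 18, a mean of 0.80 ± 0.30 (SE; limma, adjusted p = 0.517). The spread of that difference between days (SD 0.79) is about as large as its mean. M400005422 was higher with miR-133 by 0.26 ± 0.056 (SE; limma, adjusted p = 0.356) and M300005983 by 0.15 ± 0.047 (SE; limma, adjusted p = 0.426). None of these 6 passed the test.

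The comparison of day 18 with the mean of days 3 and 7 asked whether the loss deepened or eased later, and is not moved by an exchange of days 3 and 7. It too is drawn from the first-round iCM arrays whose brightest value the rule used. Here the 2 arms serve as replicates of a day, in the same limma fit. Of the 41 members, 7 were higher at day 18 and 3 lower, against a background of 4.62% and 4.01% of tested probes. The median over the members was 0.067 on the log2 scale, against −0.011 over all tested probes. By arm it was 0.012 with GMT/miR-133 and 0.11 with GMT. At 10 of 41 members day 18 was above both earlier days in both arms, against 17.7% of tested probes, and at 6 it was below them, against 21.4%.

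These calls were not stable over the arrays used. Without the files labelled day 7, which were scanned apart from the others, 0 members and 34 of all probes passed by limma. Without day 3, 6 members did, with 868 of all probes higher and 845 lower. No member passed with the later array titled GMT/miR-133 exchanged for the earlier one of day 7, where 4 probes passed in all. None passed with the authors' value table, where 7 probes were higher and 15 lower, or with the local background column, where 0 probes passed. Under those settings, then, calls were few or absent over the chip and not at the members alone.

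By the rule, the 7 rising probes were under both controls on every iCM array. M200006408 changed most. It was at 5.93, 5.96 and 7.12 (log2) with GMT/miR-133 and at 5.87, 5.81 and 7.31 with GMT in the files of days 3, 7 and 18, against 8.41 in heart and 8.74 in MEF. Both day 18 arrays were above all 4 earlier ones. The difference was 1.32 ± 0.084 (SE; limma, adjusted p = 0.00958), and 1.32 without day 7 (limma, adjusted p = 0.0545). In the value table its day 18 intensities were 59.6 and 68.1 with GMT/miR-133 and GMT, where the 4 earlier columns had 5.07 to 6.17.

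M400002872 and M300000072 behaved alike. M400002872 was at 6.24, 6.22 and 7.10 with GMT/miR-133 and at 6.38, 6.32 and 7.55 with GMT, against 10.23 in heart and 9.78 in MEF. Its difference was 1.04 ± 0.089 (SE; limma, adjusted p = 0.0136), and 1.02 without day 7 (limma, adjusted p = 0.0709). M300000072 was at 6.19, 6.22 and 6.87 with GMT/miR-133 and at 6.40, 6.55 and 7.28 with GMT, a difference of 0.74 ± 0.059 (SE; limma, adjusted p = 0.0127) and of 0.79 without day 7 (limma, adjusted p = 0.0724). In each arm day 18 was the highest of the 3 days at both probes.

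The other 4 differed less. M400010804 was higher at day 18 by 0.52 ± 0.050 (SE; limma, adjusted p = 0.0160) and M400015493 by 0.41 ± 0.054 (SE; limma, adjusted p = 0.0261). M300007712 was higher by 0.29 ± 0.051 (SE; limma, adjusted p = 0.0431) and M400000135 by 0.26 ± 0.046 (SE; limma, adjusted p = 0.0438). Without day 7 these 4 differences were 0.39, 0.38, 0.19 and 0.35 in the same order, with limma's adjusted p at 0.121 to 0.247.

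The 3 falling probes rested on the files labelled day 7. M200016022 was at 6.20, 6.87 and 6.003 with GMT/miR-133 and at 6.20, 7.03 and 6.07 with GMT, against 8.15 in heart and 8.80 in MEF, so the day 3 and day 18 files lay close together and the day 7 files above them. Its difference was −0.54 ± 0.056 (SE; limma, adjusted p = 0.0178), and −0.16 without day 7. M400000336 differed by −0.63 ± 0.11 (SE; limma, adjusted p = 0.0392) and by −0.12 without day 7. M200007901 differed by −0.25 ± 0.045 (SE; limma, adjusted p = 0.0461) and by −0.11 without day 7, and its sign turned, to 0.035, with the local background column.

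The 2 arrays of the later round took no part in the rule, but they are set against the same heart and MEF arrays, and with 1 array each there is no test. On the Snai1 array 37 of the 42 members were at least 2-fold under both controls, where 4.85% of the 5008 probes bright in both controls were. On the array of the same round titled GMT/miR-133, the second of day 7, 41 were, where 5.19% of the 5008 were. Both arrays met it at 37 members and at 3.19% of the 5008. The 42 are themselves counted in these shares. The median ratio of the dimmer control to the array was 3.15 on the Snai1 array and 3.48 on the second day 7 array, with 3.00 to 3.55 on the 6 first-round arrays. All 42 members were under both controls on both arrays. These counts and ratios are on the authors' values. On the quantile-normalized scanner values, 29 members were 2-fold under both controls on the Snai1 array and 40 on the second day 7 array. With median scaling 21 and 31 were. Shares over all probes were not counted on those scales.

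On the authors' values, few members missed 2-fold. M200000752, the member with the largest ratio in the first round, reached 1509 on the Snai1 array and 984 on the second day 7 array, against 2118 in heart and 1783 in MEF. Its ratios there were 1.18 and 1.81, so its loss was no longer 2-fold on either array. The other 4 missed it on the Snai1 array alone. M200000901, with a ratio of 1.94, was at 72.2 there and at 59.3 on the second day 7 array, against 139.9 in heart and 165 in MEF. M300007712, M300001561 and M300005983 had ratios of 1.95, 1.75 and 1.74 on the Snai1 array and of 3.62, 3.09 and 2.80 on the second day 7 array.

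The Snai1 array was also set against the second day 7 array of its round, and neither array entered the rule. Because that array is titled GMT/miR-133 but described as GMT alone, the 2 arrays may differ in Snai1 alone or in Snai1 and miR-133. On the Snai1 array 23 members were above 25 and on the second day 7 array 14, where 43.2% and 44.1% of all probes were. At 33 of 42 members the Snai1 array was higher on the log2 scale and at 9 it was lower, where 50.6% of all probes were higher and 48.4% lower. The median difference was 0.28, against 0.0024 over all probes. Past 2-fold, 2 members were higher, where 0.677% of probes were, and 0 were lower, where 0.993% were. The number higher was 29 to 33 over 4 ways of processing the scanner files, and 19 in the authors' values, where values at the floor give no difference.

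The control array mattered. Against the first day 7 GMT/miR-133 array, scanned in another session, 23 members were higher with Snai1 and 19 lower, with a median of 0.064, where 50.9% of all probes were higher and 48.2% lower. Past 2-fold, 2 members were higher, M200000752 and M400010804, where 0.737% of probes were, and 0 were lower, where 1.03% were. The 2 arrays titled day 7 GMT/miR-133 differed from each other as well, with the second array lower at 30 of 42 members and higher at 12, where 49.5% and 49.9% of probes were, and a median of −0.11. Past 2-fold the second was higher at M200000752, where 0.809% of probes were, and lower at M400000336 and M200005916, where 0.737% were. The first day 7 array in these counts is the scanner file labelled day 7, whose values the value table lists under day 3. If the value table has the right days, they set arrays of different days against each other. No count was made with the GMT/miR-133 file labelled day 3 in its place. At 20 of 42 members the Snai1 array was above both, where 33.3% of all probes were.

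The largest difference was at M400000336, at 9.48 on the Snai1 array and 7.35 on the second day 7 array, 2.13 apart on the log2 scale. Against the first day 7 array, at 9.42, the difference was 0.067, and the second array minus the first was −2.07. M200005916 was at 7.69 on the Snai1 array and 6.51 on the second day 7 array, a difference of 1.18. Against the first day 7 array, at 7.99, it was −0.30. That array is the file labelled day 7, whose values the value table lists under day 3. The GMT/miR-133 file labelled day 3, listed there under day 7, was at 6.64, below the Snai1 array. The sign at M200005916 thus depends on which day label is right. At M400000336 the file labelled day 3 was at 8.63. M200000752 differed by 0.97 and against the first day 7 array by 2.48. In the other direction M400005422 differed by −0.46, M200006408 by −0.35 and M200000893 by −0.35, all under 2-fold.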

How the data were processed

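Each sample was hybridised, Cy5-labelled per the labels' protocols, to a 1-colour Toray mouse chip. The authors deposited 2 kinds of values. The scanner files hold, per the file headers, median spot intensity and local background intensity with no normalization. The value table holds intensities scaled by the authors to a median near 25, with dim probes empty. The rule behind the empty cells is not stated in the labels.

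The members were found on the value table. For tests, spot intensities were corrected with normexp fitted to the 2736 blank spots (limma 3.58.1, R 4.3.3, offset 50), quantile-normalized over 10 arrays and log2-transformed. limma fitted arm and day over 19932 probes, with Benjamini-Hochberg adjustment. The p-values measure only the spread between days or arms, which may be technical. The script was tested on simulated data. The number of arrays limits precision.

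Named probes are the 10 largest and 5 smallest ratios, the 5 nearest outside, the 5 brightest, those called or most different between arms, the largest Snai1 differences, and those missing 2-fold on a later array. The members, rules and lists were chosen with earlier results of these data known. The gene lists could not be used without probe names.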

Additional observations from a re-analysis of the deposited data

Results flagged for a closer look

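No condition had enough arrays for a search for outlying samples. At 1 member, M300010492, day 18 lay outside the range of days 3 and 7 in opposite directions in the 2 arms: it was above both by a mean of 0.15 (log2) with GMT/miR-133 and below both with GMT, by −0.051. The difference between the arms was not tested.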

How the results depend on the processing

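The number of probes meeting the rule was 25 with a floor of 50, 120 at 1.5-fold, 17 at 3-fold, 22 with median-scaled scanner values and 70 with the columns of the controls' session (an alternative chosen after seeing the data), and 42 to 55 without 1 iCM array. Between arms 1 member, M300000787, was called under 3 settings (no background subtraction; a normexp offset of 16; limma's trended, robust fit), against 0 otherwise, and M400005422 reversed to −0.013 with the local background. The arm median was −0.031 in the value table and −0.174 with the second day 7 array. Members lower at all 3 days, counted under values chosen after seeing the data, were 15 with the local background (13.4% of tested probes) and 9 in the value table (10.9%). The 10 day 18 calls became 5 with median scaling (442 higher and 632 lower over all probes), 4 with no replicate block (719 and 683), 0 with the local background, the value table or the second day 7 array (0, 22 and 4 calls over all probes), and 0 to 6 without a day (34 and 1713). Without a day the day 18 median was 0.021 to 0.159. Without day 18 that contrast has no value. M200007901 reversed to 0.035 with the local background. The replicate block here is the day, or the arm in the day 18 test, and removing it gave 0 arm calls. On the Snai1 array 21 members were 2-fold under both controls with median scaling. Past 1.5-fold 10 members were higher on the Snai1 array than on the second day 7 array and 0 lower. The share of all probes past that fold was not counted. The cause of these changes was not tested. In 61 other pairs of one of these results and an alternative, a count moved at most 1.5-fold or a median stayed within a set margin. That margin was the SD of the medians over days for the arm contrast and over arms for day 18. It took in day 18 medians of 0 in the value table and 0.137 with an offset of 16, against 0.067 in the main fit. For the probes named in the 2 tests, 137 pairs kept the outcome of the main fit, whether called or not called. None of the probes named between arms was called in the main fit, so their unchanged pairs are pairs without a call. In 56 pairs a call was lost, all of them day 18 calls, and in 3 a call was gained.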
